A study of Mus musculus with 50 samples.

Results

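Rps4l, Apobec3, Nxt2, Hsd3b6, Tmem267 and Gm38534 were at least 2-fold higher in embryonic mouse brain when both copies of Gtf2i were mutant than in wild-type. They are described here together with Rps4x, the gene that Rps4l resembles, as 7 of the 11708 genes of a table of read counts. Wild-type levels of the first 6 ran from the 0.495 percentile of these genes (Apobec3) to the 39.3 percentile (Hsd3b6). The first 6 were chosen for that rise, so their levels in gtf2i/gtf2i are a description with no test, and Rps4x was taken as the unchosen paralogue. The questions were whether 1 mutant allele gave part of the rise, whether the level moved in a single step, and what the table shows that bears on variants other than the Gtf2i mutation.

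RNA was sequenced from whole brains at E13.5, in mid-gestation, 1 library per sample, with 3 samples in each of 6 groups. The strain was labelled FVB/ANTJ throughout. In the gtf2i cross the genotype labels were wt, gtf2i (read as 1 mutant allele) and gtf2i/gtf2i, and in the ird1 cross they were wt, ird1 and ird1/ird1, for the related gene Gtf2ird1. The wt samples were labelled as being for the gtf2i comparison or for the ird1 comparison. Each such set is called a cross here, though the genotype labels name no cross or breeding. Each cross had its own wt samples. The labels do not describe the mutations, the sex of the embryos or any treatment, and the 32 chromatin immunoprecipitation and input samples were not analysed here. Nothing in the labels states whether samples came from separate litters, so the p-values measure only the spread between these samples, which may be technical.

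Gtf2i encodes TFII-I, a transcription factor that binds initiator elements and E-boxes at promoters, and Gtf2ird1 encodes a relative of it. Both lie in the region deleted in Williams syndrome. The genes described here have no known common pathway. Rps4x encodes a protein of the small ribosomal subunit and lies on the X chromosome. Apobec3 encodes a cytidine deaminase that restricts retroviruses, Nxt2 a partner of the nuclear export receptors that carry messenger RNA, and Hsd3b6 a 3-beta-hydroxysteroid dehydrogenase, an enzyme of steroid hormone synthesis.

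The libraries held between 3239117 and 7371483 counted reads. Levels are given as CPM, counts scaled to a common library total. Gtf2i RNA, the check of the labels, ran from 598 to 658 CPM in the wt libraries of its cross, from 363 to 375 CPM in gtf2i and from 81.8 to 83.3 CPM in gtf2i/gtf2i. Gtf2ird1 RNA was 2.27-fold higher in ird1/ird1 than in its wt (called), so its RNA level does not show a loss of the gene in the samples labelled ird1/ird1. Across all genes 110 of 11708 (0.94%) were called in gtf2i/gtf2i against wt, where called means an adjusted p under 0.05 by the quasi-likelihood test of edgeR (Benjamini-Hochberg over all genes). With the number that begins the sample titles as a block the count was 624 (5.33%), and it was 28 without wt replicate 3 and 1159 without gtf2i/gtf2i replicate 3.

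Rps4l (ENSMUSG00000063171) had the largest rise of the table. Its level was 24.3, 20.2 and 23.7 CPM in the wt libraries of the gtf2i cross, 13.1, 17.0 and 18.3 CPM in gtf2i, and 145, 161 and 126 CPM in gtf2i/gtf2i. The lowest gtf2i/gtf2i library thus stood far above every other one, and the gtf2i libraries lay below all wt libraries. On the log2 scale gtf2i/gtf2i was 2.64 above wt (SE 0.132) and 3.14 above gtf2i (SE 0.138). In the ird1 cross the levels were 24.8, 36.9 and 19.9 CPM in wt, 23.4, 28.7 and 25.03 CPM in ird1, and 25.5, 14.6 and 23.2 CPM in ird1/ird1, with all 3 groups overlapping. Of the 15 libraries that were not gtf2i/gtf2i, 0 reached the lowest gtf2i/gtf2i level, which was 3.41 times the highest of them.

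Rps4x (ENSMUSG00000031320) showed no such step. It was at 125, 114 and 90.2 CPM in wt, 100, 129 and 126 CPM in gtf2i and 144, 152 and 103 CPM in gtf2i/gtf2i, and these groups overlapped. Rps4x was not chosen for its change, so it was tested. The log2 fold change in gtf2i/gtf2i against wt was 0.27 (SE 0.151, 95% interval -0.06 to 0.59) and was not called (edgeR adjusted p 0.462). With the number that begins the sample titles as a block, Rps4x had an edgeR p of 0.0451 and an adjusted p of 0.250. It was called in 1 of 14 alternative fits, without gtf2i/gtf2i replicate 3, at 0.43 (edgeR adjusted p 0.0386). In the other 4 comparisons it was not called, with log2 fold changes from -0.25 in ird1 against wt to 0.16 in gtf2i/gtf2i against gtf2i.

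Per kilobase of transcript the paralogues changed places. Rps4l stood at 21.9% ± 4.70 of the Rps4x level in wt, 14.1% ± 0.854 in gtf2i and 113% ± 11.5 in gtf2i/gtf2i (SD, n = 3 each). The gtf2i/gtf2i ratios ran from 104% to 126%, so Rps4l was above its paralogue in each of these 3 libraries. In the ird1 cross the ratio was 19.9% ± 2.84 in wt, 22.8% ± 1.09 in ird1 and 17.1% ± 4.21 in ird1/ird1. The summed level of both genes went from 133 ± 17.9 CPM in wt to 277 ± 43.6 CPM in gtf2i/gtf2i, so the reads gained by Rps4l were not matched by reads lost from Rps4x. How reads that fit both genes were counted is not given in the sources used here, so the split between them is uncertain. For scale, Rps4x in wt was at 113 CPM per kilobase, against a median of 43.6 CPM per kilobase for the 27 small-subunit ribosomal protein genes of the table, 8 of which were above Rps4x.

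**Figure D1:**
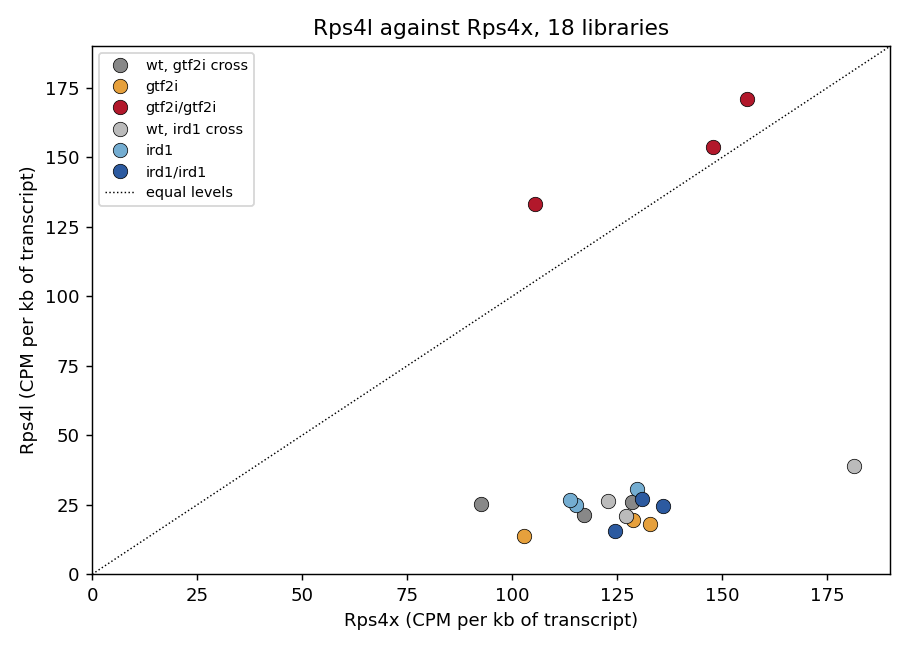
Level of Rps4l (y axis) against Rps4x (x axis), both in CPM per kilobase of transcript on linear axes from 0, with 1 point per library, coloured by group, and a dotted line at equal levels. The 3 gtf2i/gtf2i libraries lie above the line (104% to 126% of Rps4x), and the other 15 lie far below it at a like Rps4x level.

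Apobec3 (ENSMUSG00000009585) was the only chosen gene whose gtf2i libraries all lay between those of wt and those of gtf2i/gtf2i. It was at 6.00, 3.59 and 3.80 CPM in wt, 11.2, 11.5 and 9.64 CPM in gtf2i, and 19.1, 19.6 and 15.6 CPM in gtf2i/gtf2i. On the log2 scale gtf2i/gtf2i was 2.00 above wt (SE 0.203) and 0.74 above gtf2i (SE 0.179). The values rest on small counts, 19 to 36 reads in the wt libraries, 64 to 68 in gtf2i and 85 to 111 in gtf2i/gtf2i, and the wt level lay at the 0.495 percentile of all genes of the table. The authors' deposited table holds only genes above a minimum in every library, so Apobec3 in wt was close to the lowest level that could be listed.

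In gtf2i against wt, a comparison that did not define the choice but shares its wt libraries, 0 of the 7 genes were called, where 0.00854% of all genes were (1 gene, Gtf2i). Apobec3 was 1.26 above wt on the log2 scale (SE 0.213, 95% interval 0.81 to 1.72), higher in 3 of 3 libraries, with an edgeR adjusted p of 0.150 over all genes. Its adjusted p was 0.00262 with DESeq2 and 0.0141 with edgeR on all 18 libraries, and both made it a call. Over the 14 alternatives its adjusted p ran from 0.00262 to 1.00. Rps4l was lower in gtf2i by 0.50 on the log2 scale (-0.50, SE 0.149, edgeR p 0.00504), with an adjusted p of 1.00. Libraries of gtf2i and wt did not overlap for 2 of the 7 genes, Apobec3 above and Rps4l below, where 7.27% of all genes did not overlap.

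The Apobec3 levels of the ird1 cross moved the other way. They were 7.83, 8.23 and 7.92 CPM in wt, 4.85, 5.00 and 5.84 CPM in ird1, and 4.99, 6.50 and 4.58 CPM in ird1/ird1. All mutant libraries of this cross lay below its wt libraries (26.9% of all genes did not overlap in ird1/ird1 and 7.04% in ird1), and its wt libraries lay above the wt libraries of the gtf2i cross. The log2 fold change was -0.60 in ird1 (SE 0.195, edgeR p 0.00760, adjusted p 0.997) and -0.57 in ird1/ird1 (SE 0.196, edgeR p 0.0112, adjusted p 0.296), neither of them a call. The effect of 1 mutant allele differed between the crosses by 1.87 on the log2 scale (gtf2i minus ird1, SE 0.282, edgeR adjusted p 0.00965 on all 18 libraries). That comparison was added after the values were seen and uses wt libraries that entered the choice of Apobec3. It was called for 2 of 11708 genes (0.0171%), the other being Gtf2i, and the Apobec3 call was lost in 3 of the fits that leave out 1 library (gtf2i cross wt replicate 2 or 3, or ird1 cross wt replicate 1), with adjusted p from 0.0507 to 0.0677.

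Nxt2 (ENSMUSG00000042271) was at 8.00, 6.99 and 8.96 CPM in wt, 10.2, 7.35 and 11.1 CPM in gtf2i and 27.0, 23.1 and 28.1 CPM in gtf2i/gtf2i. The gtf2i libraries overlapped those of wt, and the lowest gtf2i/gtf2i library was 2.09 times the highest of the other 15. The log2 difference from wt was 1.69 in gtf2i/gtf2i (SE 0.172) and 0.25 in gtf2i (SE 0.190, edgeR adjusted p 1.00). The ird1 cross ran from 3.62 CPM, in wt replicate 2 with 11 reads, to 10.0 CPM.

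Tmem267 (ENSMUSG00000074634), which encodes a transmembrane protein, was at 22.5, 20.2 and 17.4 CPM in wt, 19.3, 17.0 and 17.3 CPM in gtf2i and 43.0, 43.4 and 52.2 CPM in gtf2i/gtf2i. Gm38534 (ENSMUSG00000108634), a long noncoding RNA gene in the RefSeq annotation, was at 9.51, 8.31 and 10.0 CPM in wt, 9.50, 6.81 and 7.09 CPM in gtf2i and 18.04, 21.7 and 21.2 CPM in gtf2i/gtf2i. For both genes wt and gtf2i overlapped and gtf2i/gtf2i stood alone. The log2 difference of gtf2i/gtf2i from wt was 1.21 for Tmem267 (SE 0.133) and 1.11 for Gm38534 (SE 0.165). Gm38534 had the narrowest margin over the other 15 libraries, 1.30 times, because ird1 replicate 1 reached 13.9 CPM.

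Hsd3b6 (ENSMUSG00000027869) was at 31.5, 30.4 and 23.6 CPM in wt, 25.2, 21.2 and 22.8 CPM in gtf2i and 74.4, 82.7 and 65.2 CPM in gtf2i/gtf2i. The gtf2i libraries overlapped wt at its low end, and the lowest gtf2i/gtf2i library was 1.67 times the highest of the other 15. Its log2 difference from wt was 1.37 in gtf2i/gtf2i (SE 0.130) and -0.30 in gtf2i (SE 0.140, edgeR p 0.0496, adjusted p 1.00). In ird1 it was at 28.1, 39.0 and 38.2 CPM, against 17.8, 17.8 and 32.1 CPM in the wt libraries of that cross, 0.63 higher on the log2 scale (SE 0.226, edgeR p 0.0136, adjusted p 0.997).

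Some red blood cell genes moved with Hsd3b6. The 3 genes of the table whose log2 CPM was most like that of Hsd3b6 over the 18 libraries were embryonic globins and the red cell anion exchanger, Hba-x (Pearson r 0.91), Hbb-y (0.90) and Slc4a1 (0.89). Of 21 red blood cell genes listed, 11 were in the table (Ahsp, Klf1 and Gata1 were not), and 2 were called higher in gtf2i/gtf2i than in wt, where 0.41% of all genes were, Hbb-y at a log2 fold change of 0.76 (edgeR adjusted p 0.0392) and Slc4a1 at 0.83 (edgeR adjusted p 0.0379). Both calls were lost without wt replicate 2 or 3, without gtf2i/gtf2i replicate 2 and with only the groups compared in the fit, and that of Slc4a1 also without gtf2i/gtf2i replicate 1. Against gtf2i 5 of the 11 were called higher, Hba-a1, Hba-x, Hbb-y, Alas2 and Slc4a1, where 1.33% of all genes were, and the call of Slc4a1 held in all 14 alternatives while the others were lost in 2 to 5. The median log2 fold change of the 11 genes against wt was 0.29, against 0.00 for all genes. Not all of them rose: 9 of 11 were higher than in wt (from -0.53 to 0.83) and 8 of 11 higher than in gtf2i (from -0.61 to 1.17). The summed level of the 11 genes ran from 4225 to 5417 CPM in wt, from 3919 to 4317 CPM in gtf2i and from 5915 to 9299 CPM in gtf2i/gtf2i. In whole brains, more blood cells and more RNA per blood cell cannot be told apart.

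The summed red blood cell level of gtf2i/gtf2i was 1.58 times that of wt, and the Hsd3b6 level 2.60 times. Most of that sum was 1 gene, Hbb-y, at a mean of 3099 of 4677 CPM in wt and 5283 of 7410 CPM in gtf2i/gtf2i. The sum, and levels divided by it, therefore mainly follow Hbb-y. Per 1000 CPM of red blood cell genes, the Hsd3b6 level averaged 6.11 ± 0.717 for wt embryos, 5.61 ± 0.376 with 1 mutant allele and 10.3 ± 2.02 with 2 (CPM, SD, n = 3 each). This ratio ran from 5.59 to 6.93 in wt and from 8.89 to 12.6 in gtf2i/gtf2i, without overlap. Hsd3b6 was chosen for its rise in gtf2i/gtf2i, which enters the ratio, so the choice largely fixes this separation. At a like blood level, 5915 CPM in gtf2i/gtf2i replicate 1 and 6027 CPM in ird1 replicate 2, Hsd3b6 was at 74.4 and 39.0 CPM. These are single libraries of different crosses, and Hsd3b6 was chosen for its level in gtf2i/gtf2i. The part of the blood cell genes in the Hsd3b6 rise was not tested.

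**Figure D2:**
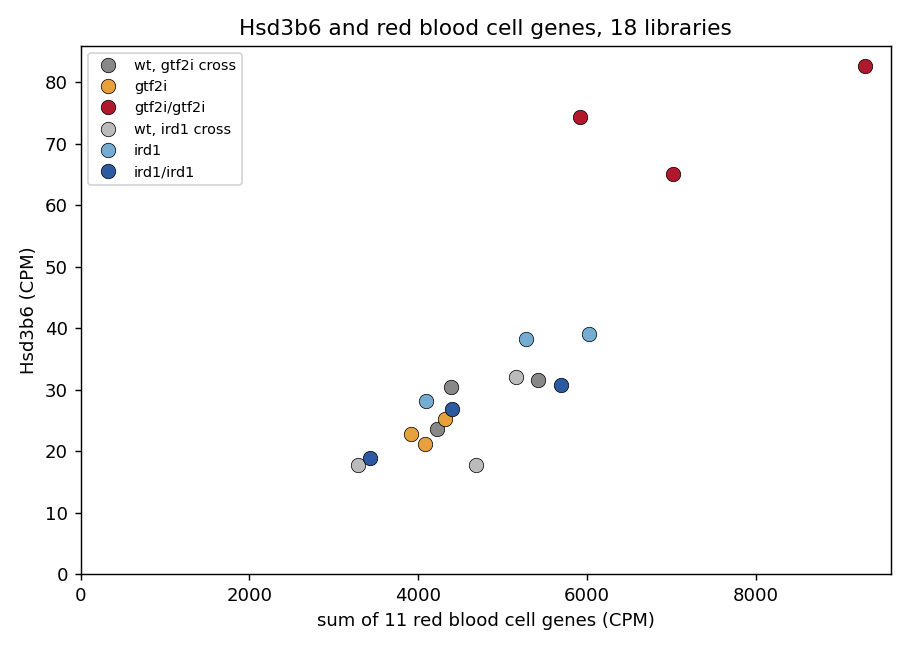
Level of Hsd3b6 in CPM (y axis) against the summed CPM of 11 red blood cell genes (x axis), linear axes from 0, with 1 point per library coloured by group. The 3 gtf2i/gtf2i libraries (65.2 to 82.7 CPM) lie above all others, which the choice of Hsd3b6 for its rise largely fixes. The sum of blood genes in ird1 replicate 2 is like that in gtf2i/gtf2i replicate 1. In wt and gtf2i/gtf2i of the gtf2i cross, Hbb-y made up most of the sum.

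The allele dose fell into 2 patterns. The share of the distance from the wt mean to the gtf2i/gtf2i mean that was covered in gtf2i was 46.3% for Apobec3, whose gtf2i level was 241% and gtf2i/gtf2i level 405% of wt. For Nxt2 that share was 8.57%. For the other 4 chosen genes the gtf2i mean was below the wt mean, with a share of -5.46% for Rps4l, -8.19% for Tmem267, -11.96% for Hsd3b6 and -13.48% for Gm38534. With 1 mutant allele Gtf2i RNA itself had a log2 difference of -0.76 from wt (SE 0.0713), a call (edgeR adjusted p 0.000501). At that reduced Gtf2i level these 5 genes stayed near or below wt, and they stood above it in gtf2i/gtf2i alone. On the log2 scale the gtf2i level minus the midpoint of the other genotypes was 0.26 for Apobec3 (SE 0.168) and between -1.82 (Rps4l, SE 0.129) and -0.59 (Nxt2, SE 0.158) for the others. Gtf2ird1, not a chosen gene, was also intermediate in this cross, at 147% of wt in gtf2i and 289% in gtf2i/gtf2i, a share of 24.8%. Its difference between gtf2i and wt was not called (edgeR adjusted p 0.150), and it was called in 3 of 14 alternatives.

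**Figure D3:**
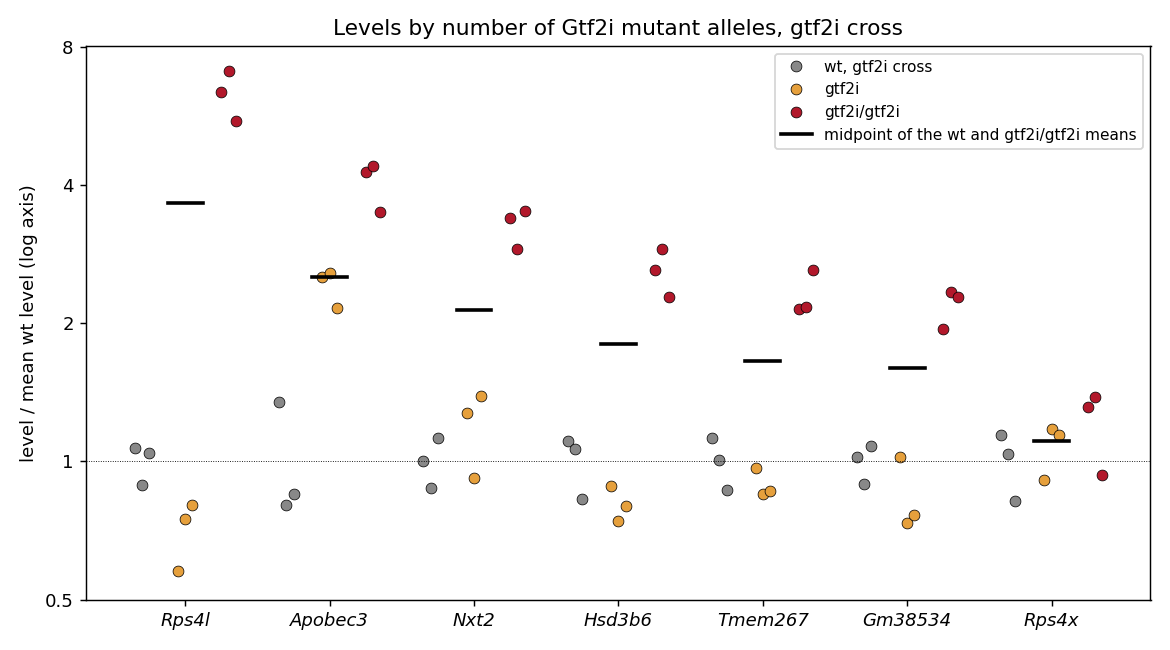
Level of each gene divided by its mean wt level (log axis) in the 9 libraries of the gtf2i cross, with 1 point per library, coloured by genotype, and a bar at the midpoint of the wt and gtf2i/gtf2i means. For Apobec3 the gtf2i libraries lie near the midpoint; for Rps4l, Nxt2, Hsd3b6, Tmem267 and Gm38534 they lie near or below wt.

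Counted as libraries, 6 of the 7 genes had every gtf2i/gtf2i library above every wt library, and the same 6 were called, against a background of 7.82% of all genes above in this way and 0.41% called higher. The choice of the genes fixes these counts. By size of rise they ranked 1, 2, 3, 6, 10 and 12 of the table, and 13 genes in all were at least 2-fold higher. The 7 others were Gtf2ird1, Pnpla6, Tcirg1, Gas2l1, Ace, Ccn2 and Afap1l2. Gm38534 at 1.11 was the lowest of the 6 chosen genes, and Wnt4 at 0.99 was the gene just short of 2-fold. Within each of the 3 title numbers of the gtf2i cross, which hold 1 library of each genotype, gtf2i/gtf2i over wt was 5.29- to 7.18-fold for Rps4l, 3.27- to 5.31-fold for Apobec3 and 1.93- to 3.00-fold for Tmem267.

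**Figure D4:**
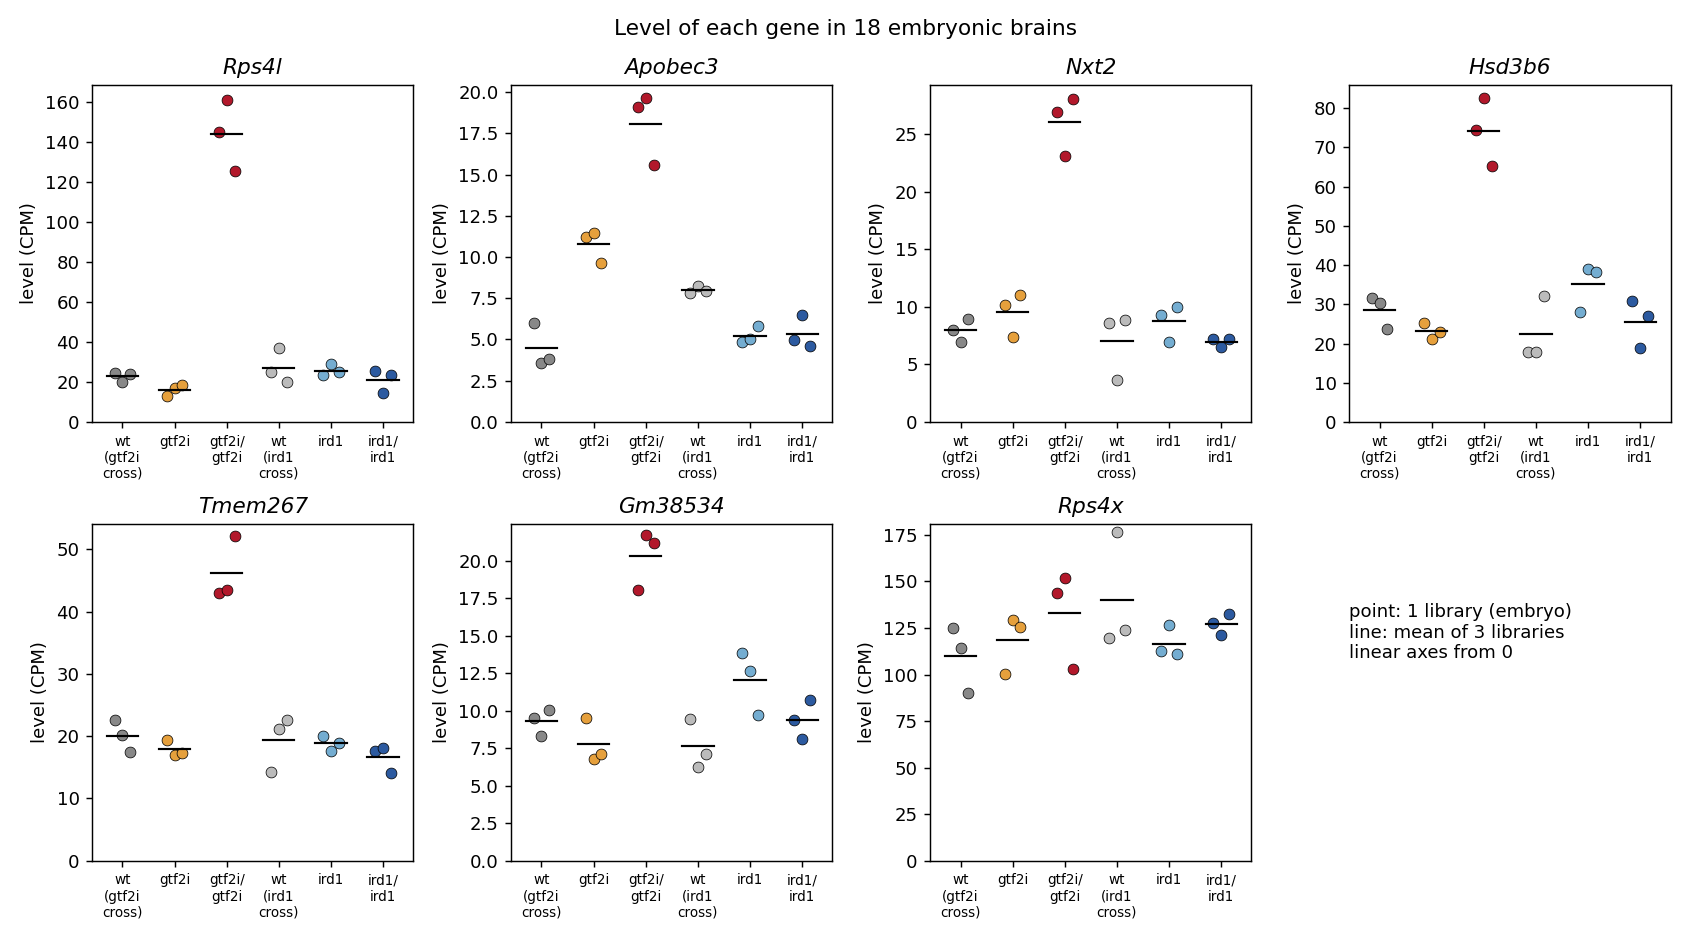
Level in CPM (linear axes from 0) of the 7 genes in the 18 libraries, in 6 groups of 3, with 1 point per library and a line at each group mean. In gtf2i/gtf2i every library of Rps4l, Apobec3, Nxt2, Hsd3b6, Tmem267 and Gm38534 lies above the other 15, while Rps4x overlaps between groups.

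In the ird1 cross none of these steps was seen. In ird1/ird1 against wt 0 of the 7 genes were called, where 0.00854% of all genes were (1 gene, Gtf2ird1), and in ird1 against wt 0 of 7, where 0% were. At an unadjusted edgeR p under 0.05 were 1 of the 7 genes in ird1/ird1 (Apobec3, lower), where 16.1% of all genes were, and 3 of 7 in ird1 (Apobec3 lower, Hsd3b6 and Gm38534 higher), where 3.02% were. No alternative fit, DESeq2 included, called any of the 7 genes in either comparison of this cross. For Gm38534 the ird1 libraries were at 13.9, 12.6 and 9.73 CPM and the wt libraries at 9.49, 6.25 and 7.15 CPM, 0.62 higher on the log2 scale (SE 0.203, edgeR p 0.00814, adjusted p 0.997). The effect of 2 mutant alleles in the gtf2i cross minus that in the ird1 cross was 2.98 for Rps4l (SE 0.276), 2.56 for Apobec3 (SE 0.277), 1.81 for Nxt2 (SE 0.311), 1.40 for Tmem267 (SE 0.222), 1.22 for Hsd3b6 (SE 0.288) and 0.87 for Gm38534 (SE 0.265) on the log2 scale, as a description. For Rps4x this difference was 0.40 (SE 0.217, edgeR adjusted p 0.426), which was not a call.

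The 6 chosen genes lay on 6 different chromosomes, 6, 15, X, 3, 13 and 11, and Gtf2i lies on chromosome 5. In the RefSeq annotation of GRCm38.p6, the build that mm10 stands for, Rps4l was at chr6:148354656-148355596 inside the span of Tmtc1. RefSeq lists it as a transcribed pseudogene, and its span of 941 bases against a transcript length of 943 leaves no room for introns, whereas Rps4x spans 4451 bases for a transcript of 975. Apobec3 was at chr15:79892058-79918218, Nxt2 at chrX:142226770-142239700, Hsd3b6 at chr3:98805504-98814443, Tmem267 at chr13:119488086-119610459, Gm38534 at chr11:88230958-88259331 and Rps4x at chrX:102184941-102189391. Apobec3 overlaps the Polycomb gene Cbx7 at its end and the noncoding RNA D730005E14Rik, and Tmem267 overlaps the noncoding RNA 3110070M22Rik. The strand setting of the counting is not given in the sources used here, so reads of overlapping genes cannot be told apart.

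The genes next to them showed small differences. The host of Rps4l, Tmtc1, differed from wt in gtf2i/gtf2i by -0.21 (SE 0.276, edgeR adjusted p 0.810) and Cbx7 by 0.14 (SE 0.197, edgeR adjusted p 0.835) on the log2 scale. Of the 14 nearest genes of the table, 1 on each side of the 7, 0 were called (edgeR), with log2 fold changes from -0.44 to 0.38, and 3 had an unadjusted p under 0.05. Of all genes 0.94% were called and 14.4% had such a p, so these counts are near the background. These were Ipo8 beside Rps4l at 0.19, Ercc6l beside Rps4x at 0.38 and Hmgcs1, an enzyme of sterol synthesis, beside Tmem267 at 0.32 (edgeR adjusted p 0.190). Distances ran from 1.97 to 415 kilobases, since the table leaves out many genes, among them the other Hsd3b genes listed for steroid synthesis.

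**Figure D5:**
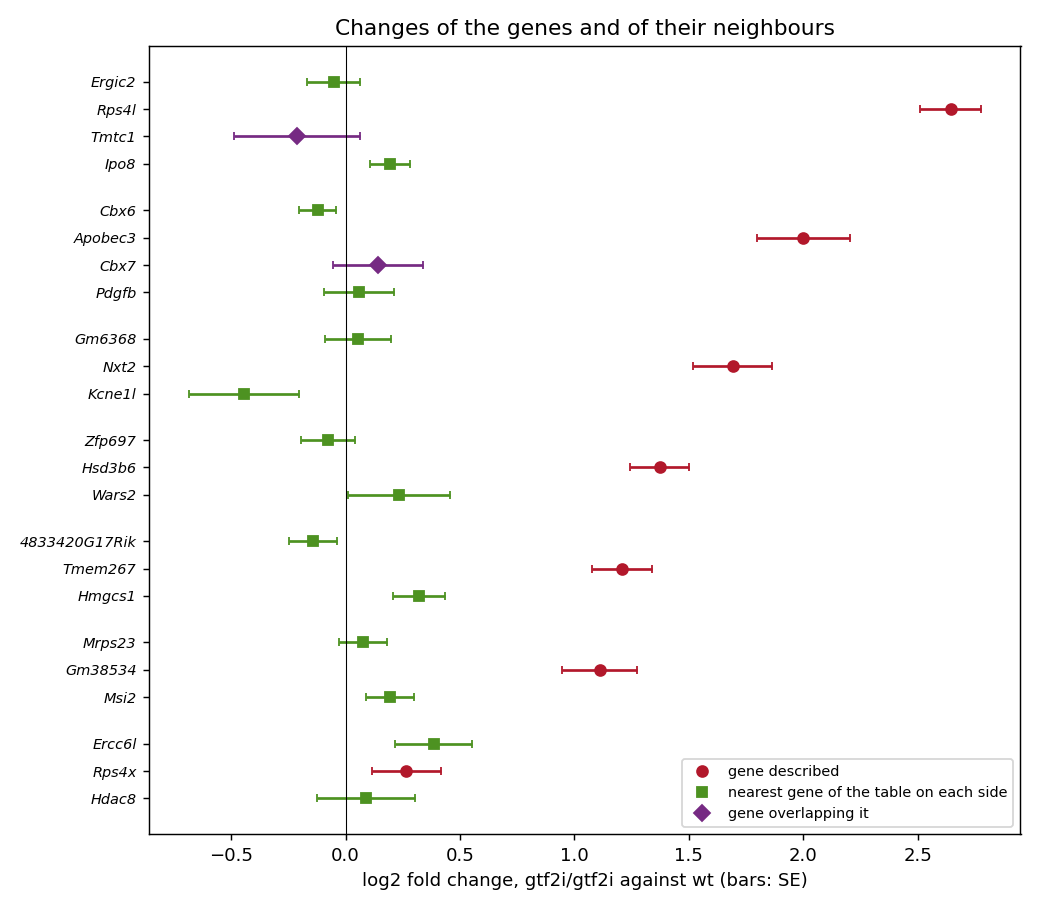
Log2 fold change of gtf2i/gtf2i against wt (x axis, bars are SE of the edgeR fit on 3 against 3 libraries) for the 7 genes, for the nearest gene of the table on each side, and for 2 genes that overlap them. The 6 chosen genes lie at 1.11 or more, and the neighbours and overlapping genes between -0.44 and 0.38.

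RefSeq promoter windows (GRCm38.p6) were found for 6 of the 7 genes, 9 windows in all, and the 250 bases before each start were searched on both strands. GGATTA, a motif known to be bound by the product of Gtf2ird1, was in 0 of the 9 windows and in 6.252% of 32851 windows of all genes. The E-box CACGTG was in 0 of 9 and in 6.021% of all. The looser E-box CANNTG, which also matches CACGTG, was in 5 of the 9 and in 66.217% of all. Capitals mark each CANNTG in the windows below, which are those before the gene's outermost start, 5′ to 3′ on the gene's strand, shown because these genes moved together or, for Rps4x, did not.
Gm38534, chr11:88230708-88230957, plus strand: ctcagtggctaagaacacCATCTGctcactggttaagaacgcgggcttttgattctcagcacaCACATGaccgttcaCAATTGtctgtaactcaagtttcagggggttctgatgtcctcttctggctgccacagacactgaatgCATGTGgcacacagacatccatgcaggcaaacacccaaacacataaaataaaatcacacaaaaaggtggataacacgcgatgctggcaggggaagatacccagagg
Tmem267, chr13:119487836-119488085, plus strand: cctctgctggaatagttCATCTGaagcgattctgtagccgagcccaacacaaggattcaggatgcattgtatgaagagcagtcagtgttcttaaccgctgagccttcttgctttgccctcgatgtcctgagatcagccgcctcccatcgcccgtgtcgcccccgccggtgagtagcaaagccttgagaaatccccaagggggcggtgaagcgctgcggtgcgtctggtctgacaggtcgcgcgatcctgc
Hsd3b6, chr3:98814444-98814693, minus strand: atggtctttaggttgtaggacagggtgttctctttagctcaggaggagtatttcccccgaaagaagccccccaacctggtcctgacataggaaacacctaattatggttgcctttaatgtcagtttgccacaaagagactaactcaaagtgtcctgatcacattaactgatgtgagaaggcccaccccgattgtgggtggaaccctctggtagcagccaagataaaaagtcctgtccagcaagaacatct
Rps4x, chrX:102189392-102189641, minus strand: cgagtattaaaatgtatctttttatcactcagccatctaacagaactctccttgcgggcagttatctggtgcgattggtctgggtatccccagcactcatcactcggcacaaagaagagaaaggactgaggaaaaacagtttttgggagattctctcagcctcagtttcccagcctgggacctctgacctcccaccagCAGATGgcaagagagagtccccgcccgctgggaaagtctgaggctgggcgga
For Apobec3 and Nxt2, whose windows lie inside longer transcripts, 30 bases around the match nearest the start are shown.
Apobec3, chr15:79894841-79894870, plus strand: gatgtCAATTGtcttcctCAGTTGctcttc
Nxt2, chrX:142227768-142227797, plus strand: aatttttcagccctcgtgCAGTTGgcggtt
Gm38534 held 4 matches, Apobec3 3 in its second window and none in its first, Nxt2 1 in its first and none in its second, Tmem267 1 in the window shown and none in the other, Rps4x 1 and Hsd3b6 none. No window was listed for Rps4l. A match describes letters only.

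Genes of the related pathways gave no calls in the main fits. The 6 lists were written from general knowledge with earlier results of these data known, and 0 of their 100 genes were called in any of the 5 comparisons (edgeR). Uncalled genes of any list were not followed in the alternative fits, some of which called more genes across the table. At an unadjusted p under 0.05 there were 3 of the 100 in gtf2i/gtf2i against wt, H2-K1, Ifnar2 and Gle1, where 14.4% of all genes were. With both Gtf2i copies mutant, median log2 fold changes against wt were 0.10 for 27 small-subunit ribosomal protein genes (23 positive), 0.10 for 4 copies of ribosomal protein genes, 0.11 for 8 nucleotide deaminases, 0.09 for 12 interferon response genes, 0.02 for 30 messenger RNA export genes and 0.03 for 19 steroid and sterol synthesis genes, against 0.00 for all genes. The 8 other deaminases lay between -0.16 and 0.25, and Apobec3 at 2.00. Only 12 of the 46 interferon response genes listed were in the table, and Isg15 and Irf7 were not among them. Immune cells, in which Apobec3 is known to be abundant, were represented by 9 of 20 listed genes, 0 of them called and 3 at an unadjusted p under 0.05 (edgeR; 0.94% and 14.4% of all genes), with a median of 0.26 (from -0.31 for Coro1a to 0.51 for Cx3cr1). Their summed level ran from 131 to 167 CPM in wt, 143 to 176 CPM in gtf2i and 152 to 176 CPM in gtf2i/gtf2i, overlapping throughout, and Ptprc, Aif1 and Tyrobp were not in the table.

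Some other tissue markers differed between these brains. Ttr, the transthyretin of the choroid plexus, had a log2 fold change of -1.63 in gtf2i/gtf2i against wt (edgeR adjusted p 0.000532). It was the 1 of 7 choroid plexus genes called, where 0.53% of all genes were called lower. Of these 7 genes 3 were higher than in wt, up to 0.78, and the median was -0.10. Against gtf2i, the radial glia genes Nes, Vim and Hes5 were called higher at 0.36, 0.40 and 0.57, and the mesenchyme gene Lum at 0.53 (edgeR adjusted p from 0.0267 to 0.0421), 3 of 10 and 1 of 13 of their lists, where 3.12% of all genes were called. Not all genes of these lists were higher than in gtf2i. Of the radial glia genes 7 of 10 were higher (log2 fold changes from -0.37 to 0.57, median 0.18). Of the mesenchyme genes 10 of 13 were higher (from -0.25 to 0.64, median 0.23). The calls of Nes and Lum were lost in 7 of 14 alternatives each and those of Vim and Hes5 in 4 of 14 each, among them fits without gtf2i replicate 2 or 3 or without gtf2i/gtf2i replicate 1 or 2. Of 13 neuron genes 0 were called in the main fits of the 5 comparisons (edgeR), with 3 at an unadjusted p under 0.05 in gtf2i/gtf2i against wt, where 14.4% of all genes were. In that comparison 3 of the 13 were higher, with a median of -0.18 (from -0.48 to 0.18). Their summed level ran from 5817 to 6434 CPM in wt and from 5009 to 6532 CPM in gtf2i/gtf2i, with a median library at 6206 and 5083 CPM. The part of these cell types in the levels of the 6 genes was not tested.

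Across the 18 libraries the chosen genes other than Apobec3 resembled one another, with Pearson r of log2 CPM from 0.74 (Tmem267 and Gm38534) to 0.89 (Rps4l and Tmem267), and Apobec3 had r from 0.44 to 0.72 with them. These values share the 3 gtf2i/gtf2i libraries that set the choice. The 3 genes most like each chosen gene by the same measure gave 5 different sets, that of Hsd3b6 being the red blood cell genes named above. Pnpla6, Gas2l1 and Abca7 were the nearest to Rps4l (r 0.95, 0.93 and 0.91) and to Tmem267 (0.93, 0.89 and 0.91). E2f6, Pnpla6 and Gas2l1 were nearest to Apobec3 with 0.78 each, Sfxn1, Sdc2 and Trim59 to Nxt2 (0.95, 0.89 and 0.88), and the homeobox gene Dbx1, Dtx4 and Irx2 to Gm38534 (0.90, 0.88 and 0.88).

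A further difference between the samples was the level of Kdm5c, an X-linked gene that escapes X inactivation and is known to be higher in females. It ran from 286 to 303 CPM in the wt libraries of the gtf2i cross, from 379 to 401 CPM in gtf2i and from 314 to 397 CPM in gtf2i/gtf2i, so wt and gtf2i did not overlap. Of the other X-linked genes of this kind, Eif2s3x did not overlap either (10.8 to 13.98 CPM in wt, 16.6 to 17.6 CPM in gtf2i), while Kdm6a and Ddx3x did. Of the 5 such genes listed, 5 were higher in gtf2i than in wt, with a median log2 fold change of 0.42. Their summed level ran from 568 to 664 CPM in wt and from 747 to 835 CPM in gtf2i, without overlap. For gtf2i against wt, the Apobec3 difference included, genotype and whatever sets Kdm5c and Eif2s3x cannot be told apart. The gtf2i/gtf2i library nearest to wt in Kdm5c (replicate 1, 314 CPM, above the highest wt library at 303 CPM) had Rps4l at 145, Apobec3 at 19.1 and Nxt2 at 27.0 CPM. The part of these X-linked differences in the levels of gtf2i/gtf2i was not tested.

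On variants of the strain, the table holds levels and no sequence, and all samples carried the same strain label. Apobec3 is known to differ in expression between inbred mouse strains, and which alleles these embryos carried at it or at the other genes was not tested. The 6 genes lie on chromosomes other than that of Gtf2i. That all 3 gtf2i/gtf2i libraries stood above the wt libraries follows from how the genes were chosen. Among the other 15 libraries the highest level was 2.81 times the lowest for Rps4l, 3.20 times for Apobec3 and 3.05 times for Nxt2. It was 2.20 times for Hsd3b6, 2.22 times for Gm38534 and 1.60 times for Tmem267. Some of these levels rest on few reads, down to 11 for Nxt2 and 19 for Apobec3. The same spread was not computed for all genes. For Apobec3 the wt groups of the crosses also differed in level, 4.46 ± 1.34 against 7.99 ± 0.209 CPM (SD, n = 3 each), without overlap. This held for 1 of the 7 genes and for 32% of all genes, so it is not particular to them.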

How the data were processed

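Whole E13.5 brains were sequenced after depletion of ribosomal RNA with a commercial Illumina kit, per the labels' protocols. The authors' deposited values are raw whole-number counts of reads for each gene. Trimmomatic, STAR, HTSeq and the build mm10 are named, without versions, per the submitters' processing notes; the strand setting is not given in the sources used here. The smallest count was 10, and the smallest level in each library was 2.90 to 3.09 CPM, so genes under a minimum in any library are not in the deposited counts. The fewest reads behind a level of the 7 genes, 11, carry a counting error of 30.2%, which covers counting only.

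The genes described, the gene lists and the tests were chosen with earlier results of these data known. Named genes were the 7, Gtf2i and Gtf2ird1, the nearest gene of the table on each side, the 3 most correlated genes of each chosen gene, and called genes of the lists; overlapping genes and the genes of at least 2-fold rise were named after their values were seen. Counts were scaled by TMM and tested with edgeR 4.0.16 (quasi-likelihood, R 4.3.3, filterByExpr, which removed 0 genes), on the 9 libraries of a cross, without covariates, with Benjamini-Hochberg adjustment over 11708 genes; the script was tested on simulated data. CPM levels use TMM over all 18 libraries. Levels per kilobase use the transcript length in the deposited table. Alternatives were DESeq2 1.42.0, other scalings and filters, other sets of libraries, a replicate block and leaving out each library.

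The numbers that begin the sample titles, whose meaning the labels do not give, were checked as pairs: deviations from the group means correlated at 0.373, 0.104 and 0.514 between gtf2i/gtf2i and wt libraries of the same number. All exceeded 0.1, so they were taken to pair these groups. For gtf2i and wt the values were 0.275, 0.349 and 0.0483, and for gtf2i/gtf2i and gtf2i 0.115, 0.0568 and 0.0613, so they were not taken to pair those. Of 18 pairs of different numbers in the gtf2i cross, 1 also exceeded 0.1, wt 11619 with gtf2i/gtf2i 12301 at 0.199. The check is therefore a weak one. The main fits left the pairing out, and the block is given as an alternative. Libraries of a group were compared in 18 pairs, and each pair differed beyond counting noise, with chi-square over its degrees of freedom between 2.9 and 29.5.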

Additional observations from a re-analysis of the deposited data

Results flagged for a closer look

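The effect of 1 mutant allele on Apobec3 differed between the crosses, by 1.87 on the log2 scale (gtf2i minus ird1, SE 0.282, edgeR adjusted p 0.00965 on all 18 libraries). That comparison was added after the values were seen. It uses wt libraries that entered the choice of Apobec3, so its p-value is no independent test. Every gtf2i library was above the wt libraries of its cross and every ird1 library below those of its own. Of all genes, 7.27% did not overlap between gtf2i and wt, and 7.04% between ird1 and wt. The wt levels of the crosses differed as well, at 4.46 ± 1.34 and 7.99 ± 0.209 CPM (SD, n = 3 each). Of 11708 genes only Apobec3 and Gtf2i were called in this comparison, and the call for Apobec3 was lost in 3 fits that each left out 1 wt library.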

How the results depend on the processing

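The differences of the 6 chosen genes between gtf2i/gtf2i and wt changed neither direction nor call under the 14 alternatives, which the choice of these genes for that rise largely fixes. The Apobec3 difference from gtf2i lost its call in 5 of 14. The number of genes called across the table moved with the setting. In gtf2i/gtf2i against wt it was 110, and 322 with DESeq2, 31 on the 6 libraries compared alone, 262 on all 18 libraries together and 28 to 1159 on leaving out 1 library. In gtf2i/gtf2i against gtf2i it was 365, and 67 to 1376 on leaving out 1 library. In gtf2i against wt it was 1, and 6 with DESeq2, 5 on the 6 libraries compared alone and 3 on all 18 together. In ird1 against wt it was 0, and 1 with DESeq2, with no scaling beyond the total and with all 18 libraries, and 0 to 1 on leaving out 1 library. For the difference between the effects of 1 mutant allele it was 2, and 1 to 2 on leaving out 1 library; that comparison was chosen after seeing the data. The causes were not tested.

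With the replicate block, 624 genes were called in gtf2i/gtf2i against wt, 892 in gtf2i/gtf2i against gtf2i and 2 in gtf2i against wt. The block, the pairing by title number, changed no call of the 7 genes.

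Directions that reversed were all of uncalled values. With no scaling beyond the total, ird1 against wt was 0.00563 for Rps4l and 0.0262 for Tmem267. On leaving out 1 library, gtf2i/gtf2i against wt ranged from -0.13 to 0.0285 for Ergic2, -0.0694 to 0.21 for Hdac8, -0.0947 to 0.14 for Pdgfb, -0.0412 to 0.17 for Gm6368 and -0.53 to 0.10 for Tmtc1. Rps4x ranged from -0.0155 to 0.22 in gtf2i against wt and from -0.23 to 0.0546 in ird1/ird1 against wt, where Nxt2 ran from -0.33 to 0.0489 and Hsd3b6 from -0.0133 to 0.52. In ird1 against wt, Rps4l ran from -0.21 to 0.19 and Tmem267 from -0.21 to 0.15. With a mean count of at least 50, Apobec3 and Nxt2 gave no value in the ird1 cross, and Kcne1l and Cbx7 none in the gtf2i cross.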
